A study of Bos taurus with 252 samples.

Results

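The change in the whole-blood transcriptome of CEFT steers between day 0, before a dose of ceftiofur, and day 14 was compared with the change in untreated NC steers over the same interval. The 24 libraries concerned are those of days 0 and 14 from the 6 CEFT steers and the 6 NC steers, out of the libraries of 42 steers in 7 groups, each sampled on 6 days. They were chosen by treatment and day alone, with no measured value used. The comparison is the treatment by day term for day 14 in a model with steer as a block, fitted on the 72 CEFT and NC libraries of all 6 sampling days.

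All animals were crossbred Bos taurus and Bos indicus type steers whose age was not given. CEFT steers received 6.6 mg/kg of ceftiofur once, under the skin at the base of the ear, on day 0 after the first blood sample, and NC steers received no antimicrobial. Steers of every group, NC included, had been given tildipirosin, a trenbolone acetate and estradiol implant, an antiparasitic drug, a dewormer and respiratory and clostridial vaccines 45 days before arrival, so that NC is a control without a new antimicrobial and not an antimicrobial-naive one. Each treatment was housed in 1 pen, the groups passed through the chute in a fixed order on each day after day 0 with NC ahead of CEFT, and the CEFT libraries were all sequenced on lane 3 and the NC libraries on lane 1. Pen, chute order and lane therefore cannot be told apart from the treatment in this comparison, although a lane effect that is the same on days 0 and 14 is removed by the baseline.

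Ceftiofur is a cephalosporin that blocks the building of the bacterial cell wall and has no such target in bovine cells. RNA of whole blood comes from white cells of all kinds, platelets and young red cells, whose hemoglobin mRNA can take a large share of the reads. In white cells the mRNAs of ribosomal proteins and of the nuclear-encoded subunits of the mitochondrial respiratory chain are abundant, short and usually regulated as groups, while sterol synthesis and uptake genes are driven together by SREBP transcription factors. Because these are bulk samples, fewer cells of a type and less RNA per cell cannot be told apart in any difference given here.

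The 24 libraries had total counts of 30.7 M to 53.4 M and 19000 to 20300 genes with a count. Hemoglobin genes took 0.0513% to 20.4% of counts, and their share was higher on day 14 in both groups, by 4.53 ± 4.88 percentage points in CEFT and 5.56 ± 6.65 in NC (SD, n = 6 each, exact permutation test, two-sided, p = 0.773). By the same exact permutation test, no difference in change passed for total count (p = 0.68), the share of the 10 most abundant genes (p = 0.972) or the number of genes with a count (p = 0.21). The smallest p this design allows was 0.00216, and the 4 adjusted p-values were 0.84 or above. Of 8 marker genes fixed for blood, 7 were measured above the count filter and CSF3R was not matched in the table. Levels are given as CPM, counts scaled to a common library total after TMM, and a gene was called where its false discovery rate (FDR, the Benjamini-Hochberg adjusted p) was 0.1 or below in edgeR's quasi-likelihood test.

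On day 14, 231 of 19056 genes tested (1.21%) had changed from baseline differently in CEFT and NC steers, 129 of them (0.677%) higher in CEFT and 102 (0.535%) lower. The effects were moderate, with a median absolute log2 fold change of 0.54. Genes called higher rose by a median of 0.71 (log2) within CEFT steers and by 0.10 within NC steers, and genes called lower fell by a median of 0.54 within CEFT steers and by 0.087 within NC steers. The 6 CEFT changes did not overlap the 6 NC changes for 91 of the 231 called genes. Among all genes tested, these 91 included, they did not overlap for 188, or 0.987%. Genes were called on the same changes, so a larger share among them is favoured by the choice. At an FDR of 0.05, 104 genes were called, and 2076 genes (10.9%) had an unadjusted p below 0.05.

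The groups were not level at baseline for the called genes. For 204 of the 231 the day 0 difference between CEFT and NC was opposite in sign to the change, with medians of -0.13 (log2) for genes called higher and 0.18 for genes called lower. On day 14 itself the difference had the sign of the change for 227 of the 231, with medians of 0.45 and -0.30. Because genes were called on the change from day 0, both of these patterns of sign are favoured by the choice. Their shares over all genes tested were not counted.

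The number of genes called depended on the libraries in the fit. With single steers left out (named as labelled, such as Ceft10 and NC13) it was 58 without Ceft10, 99 without Ceft3, 107 without Ceft4, 54 without NC13, 83 without NC15 and 359 without NC5. Ceft10 differed from the other CEFT steers on day 0 in interferon-stimulated and other genes, as given with the marker lists. Whether this had a part in the count without Ceft10 was not tested, and the count was lower still without NC13. The number called was 11 when the 24 libraries of days 0 and 14 were fitted alone, with 9 of the 11 among the 231. After ComBat_seq adjustment by lane it was 105. CEFT was on lane 3 and NC on lane 1 throughout, so this adjustment could not separate lane from treatment, here or where it is given for single lists. With the OXYT steers, sequenced on the same lane as CEFT, in place of NC the number called was 0. Without hemoglobin genes in the scaling, 120 genes were called higher and 147 lower in place of 129 and 102. The direction of change was the same in all 26 alternative fits for 220 of the 231 genes, where a gene not tested in a fit was counted as not the same. Of the 231, 36 were called whichever steer was left out.

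**Figure D1:**
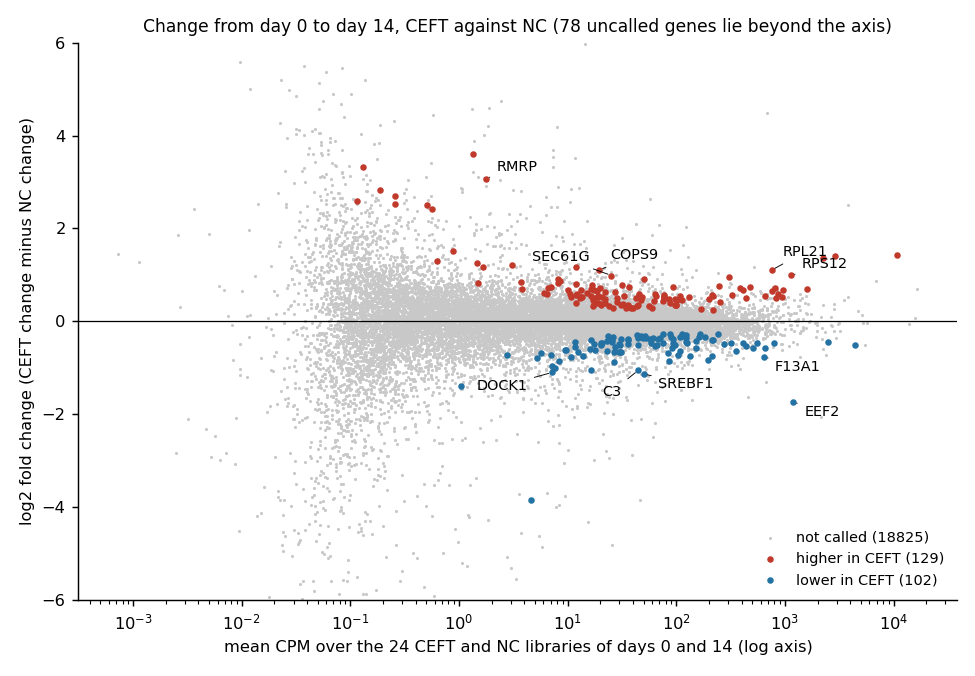
Each point is 1 of the 19056 genes tested, by its mean CPM over the 24 libraries (log axis) and its log2 fold change (CEFT change minus NC change, day 0 to day 14), with the 129 genes called higher in red and the 102 called lower in blue. Called genes lie mostly within about 1 log2 unit of zero at moderate to high abundance, and 78 uncalled genes of extreme fold change lie beyond the axis.

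The smallest p-value belonged to COPS9, a subunit of the COP9 signalosome that removes NEDD8 from cullin ubiquitin ligases. Its level in CEFT steers was 10.6 to 16.6 CPM (median 15.7) on day 0 and 26.4 to 40.7 (median 28.8) on day 14, while in NC steers it was 14.9 to 20.4 (median 16.2) and 13.9 to 21.4 (median 15.7). All 6 CEFT steers rose above the whole NC range of day 14. The log2 fold change was 1.11 (SE 0.163, FDR 0.000192), a 2.15-fold difference in change with a 95% interval of 1.72 to 2.7.

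SLIRP, which binds and stabilises mitochondrial mRNAs, stood at 10.4 to 18.2 CPM in CEFT steers on day 0 and 22 to 30.2 on day 14, and at 12.4 to 14.8 and 11.5 to 17.7 in NC steers. Again the 2 groups did not overlap on day 14 (log2 fold change 0.78, SE 0.133, FDR 0.00112). NSMCE4A, a subunit of the SMC5/6 DNA repair complex, rose by 0.41 to 0.67 (log2) in the 6 CEFT steers and changed by -0.11 to 0.13 in the 6 NC steers (log2 fold change 0.55, FDR 0.00112). SEC61G, the small gamma subunit of the channel that passes new proteins into the endoplasmic reticulum, rose by 0.36 to 1.36 in CEFT steers and changed by -0.72 to 0.32 in NC steers (log2 fold change 0.99, FDR 0.00457).

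ANAPC13, of the anaphase-promoting complex, TBCA, a tubulin folding cofactor, and BTF3, the beta subunit of the complex that meets nascent peptides at the ribosome, completed the non-ribosomal genes among the 10 with the smallest p-values in this direction. Their log2 fold changes were 0.66, 0.69 and 0.41, with an FDR of 0.00519 for ANAPC13 and TBCA and 0.00661 for BTF3. The changes of CEFT and NC steers overlapped for TBCA only among the 3. NACA, the partner of BTF3 in that complex and named here after its value was seen, was also called (log2 fold change 0.57, FDR 0.0926). TMSB10, thymosin beta 10, which binds actin monomers and was likewise singled out after its value was seen, went from 1048 to 1390 CPM in CEFT steers on day 0 to 1942 to 3096 on day 14, against 1195 to 1554 and 1225 to 1716 in NC steers (log2 fold change 0.70, FDR 0.0142).

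**Figure D2:**
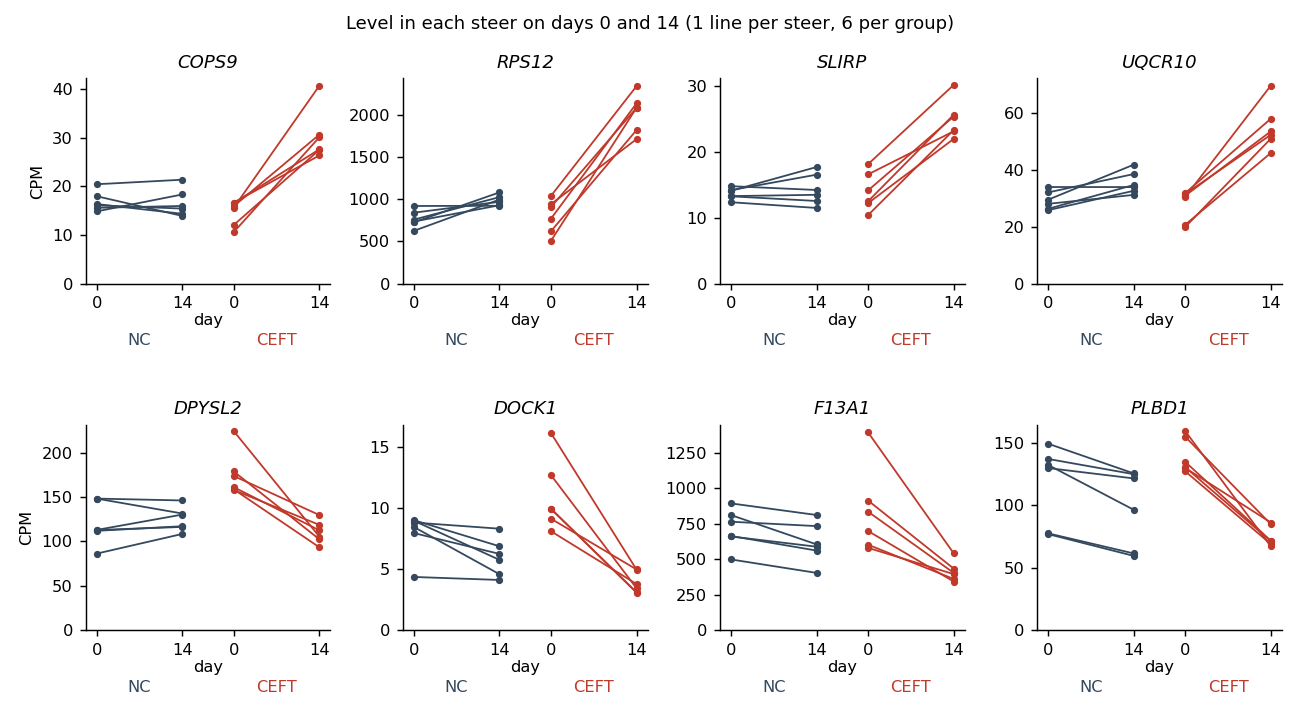
CPM on days 0 and 14 in each of the 6 NC steers (dark lines) and the 6 CEFT steers (red lines) for COPS9, RPS12, SLIRP and UQCR10, which rose, and DPYSL2, DOCK1, F13A1 and PLBD1, which fell in CEFT relative to NC. All 6 CEFT lines rise in the upper row and all 6 fall in the lower row, while the NC lines are flatter.

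Cytosolic ribosomal protein genes, which encode the protein part of the large and small ribosomal subunits, held more genes called higher than any other list read. Of 76 members tested, 16 were called higher and none lower, a share of 21.1% against 0.677% over all genes, and 42 were higher and none lower at an unadjusted p below 0.05, against 5.67% and 5.22% of all genes. The log2 fold change was above 0 for 70 of the 76, against 49.3% of all genes, with a median of 0.50 against -0.0044 over all genes tested. The median member changed by 0.85 within CEFT steers and by 0.31 within NC steers.

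RPS12, a small subunit protein, showed the pattern at high abundance. It was measured at 505 to 1037 CPM (median 837) in CEFT steers on day 0 and at 1710 to 2337 (median 2081) on day 14, and in NC steers at 625 to 919 (median 747) and 922 to 1080 (median 982). Every CEFT library of day 14 lay above every other library of the comparison. The log2 fold change was 0.99 (SE 0.167, FDR 0.00112), or 1.99-fold.

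RPL24 and RPL38, both of the large subunit, were also among the 10 genes with the smallest p-values. RPL24 went from 193 to 374 CPM on day 0 to 527 to 735 on day 14 in CEFT steers, and from 261 to 349 to 321 to 387 in NC steers (log2 fold change 0.73, SE 0.138, FDR 0.00519). RPL38 went from 121 to 229 CPM to 333 to 596 in CEFT steers and from 153 to 182 to 210 to 264 in NC steers (log2 fold change 0.76, SE 0.146, FDR 0.00519). For both genes the NC steers rose too, all 6 of them, but by less than any CEFT steer.

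RPS23, RPL23A and RPS26 likewise had changes that did not overlap between groups, with log2 fold changes of 0.74, 0.68 and 0.65. RPL21 had a log2 fold change of 1.11 (FDR 0.0177), RPL27 one of 0.95 (FDR 0.0478) and RPS15 one of 0.53 (FDR 0.0325), each with overlapping changes. Ribosomal protein genes have many near-identical processed copies in mammalian genomes, so that the split of reads between a gene and its copies is uncertain for single members.

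Summed over the 76 members, ribosomal protein CPM in CEFT steers was 24410 to 62010 (median 44930) on day 0 and 69660 to 93440 (median 74750) on day 14, and in NC steers 35310 to 51650 (median 46850) and 48080 to 60330 (median 58900). All 6 CEFT libraries of day 14 thus lay above all 6 NC libraries of that day. The lowest value of day 0 came from Ceft10, in which ribosomal protein genes took 2.26% of counts, against 3.93% to 6.53% in the other CEFT steers. The 16 calls became 6 without Ceft10, 7 without NC15, 8 without NC13, 9 without Ceft4, 27 without Ceft8, 25 without NC5 and 0 in the fit of the 24 libraries alone, with none lower in any of these fits, and the median log2 fold change without Ceft10 was 0.37. After ComBat_seq by lane 2 members were called with a median of 0.30, without the replicate block 3, and with OXYT in place of NC 0.

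Nuclear genes for subunits of oxidative phosphorylation, the chain of mitochondrial complexes that makes ATP, moved in the same direction with smaller effects. Of 68 tested, 9 were called higher (13.2%, against 0.677% over all genes) and none lower, 59 had a log2 fold change above 0, and the median was 0.26. The called members covered complex I (NDUFA12 and NDUFB1, and NDUFA4, which is also assigned to complex IV), complex III (UQCR10), complex IV (COX6B1 and COX5B) and ATP synthase (ATP5PD, ATP5PF and ATP5MC3).

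UQCR10 went from 19.9 to 31.8 CPM on day 0 to 45.9 to 69.6 on day 14 in CEFT steers, and from 25.8 to 34 to 31.2 to 41.8 in NC steers (log2 fold change 0.74, SE 0.146, FDR 0.00661). COX6B1 went from 58.8 to 87.5 CPM to 106 to 184 in CEFT steers and from 72.5 to 85.3 to 74.3 to 101 in NC steers (log2 fold change 0.74, SE 0.146, FDR 0.00661). In both cases the lowest CEFT value of day 14 exceeded the highest NC value. NDUFA12 had the largest log2 fold change of the list's called members, 0.91 (SE 0.18, FDR 0.00661), with changes that did not overlap.

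The remaining called members had log2 fold changes of 0.81 (NDUFB1), 0.54 (COX5B), 0.47 (ATP5PD), 0.51 (ATP5PF), 0.46 (ATP5MC3) and 0.50 (NDUFA4). The 13 protein genes of mitochondrial DNA did not follow: none was called in either direction, none had an unadjusted p below 0.05, and their median log2 fold change was -0.13. The 9 calls became 3 without NC13, 5 without Ceft10, 4 in the fit of the 24 libraries alone, 3 after ComBat_seq by lane, 1 without the replicate block and 0 with OXYT in place of NC, with none lower.

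Other mitochondrial genes among the 129 were picked out by symbol after their values were seen, so their counts are only descriptive. Of 77 mitochondrial ribosomal protein genes tested 7 were called higher (9.09%, against 0.677% over all genes) and none lower, with MRPS14 at the smallest p (log2 fold change 0.61, FDR 0.0154). Of 24 TIMM and TOMM genes, which import proteins into mitochondria, 4 were called higher (16.7%) and none lower, TIMM8B among them (0.56, FDR 0.0499). COX17, the copper chaperone of complex IV, was called at 0.72 (FDR 0.032).

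In the proteasome, the particle that degrades ubiquitin-tagged proteins, 12 of 31 members tested were higher and none lower at an unadjusted p below 0.05. Over all genes these shares were 5.67% and 5.22%, and the list's median log2 fold change was 0.17. Of the 31, 2 were called higher (6.45%, against 0.677% over all genes) and none lower. These were PSMA5 (56.8 to 63.5 CPM on day 0 and 84.2 to 109 on day 14 in CEFT steers, 63.8 to 74.4 and 70 to 90 in NC steers, log2 fold change 0.45, FDR 0.0471) and PSMA6 (0.59, FDR 0.0726), both of the alpha ring. Neither was called without Ceft3, Ceft6 or NC13, after ComBat_seq by lane or without the replicate block. Nor was either called in the fit of the 24 libraries alone, in that of all 7 groups or with OXYT in place of NC. Of 30 cell cycle genes 1 was called higher (3.33%, against 0.677% over all genes) and none lower. The list's median log2 fold change was 0.29, with 27 of the 30 above 0. At an unadjusted p below 0.05, 8 were higher and none lower. The called gene was PLK1, a mitotic kinase (0.35, FDR 0.0828), which lost the call in 17 of 26 alternative fits. PLK1 changed little in CEFT steers, by 0.096 ± 0.234 (log2, SD, n = 6), and fell by 0.26 ± 0.17 in NC steers, in all 6 of them.

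Small noncoding RNAs were also among the genes called higher. Of 455 tested, as classed by RefSeq, 8 were called higher (1.76%, against 0.677% over all genes) and none lower, and these 8 were noticed after their values were seen. RMRP, the RNA of RNase MRP, which lacks the poly(A) tail that the library kit selects, was at 0.387 to 0.687 CPM in CEFT steers on day 0 and at 2.02 to 10.4 on day 14, against 0.14 to 2.07 and 0.379 to 1.7 in NC steers (log2 fold change 3.07, SE 0.734, FDR 0.0329). Another 4 of the 8 were snRNA loci with log2 fold changes of 2.42 to 2.82 and medians below 1 CPM in every group and day.

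The most abundant of the genes called higher were annotated as the microRNA loci MIR2887-1 and MIR2887-2. MIR2887-2 was at 2858 to 5898 CPM in CEFT steers on day 0 and at 10670 to 36750 on day 14, and in NC steers at 3610 to 14710 and 7458 to 17810 (log2 fold change 1.43, SE 0.394, FDR 0.0732). MIR2887-1 (1.41, FDR 0.0651) and the locus LOC112442408 (1.36, FDR 0.0708) gave similar values, and in all 3 Ceft3 rose most, by 3.42 to 3.69 (log2). Whether the 3 loci share reads was not tested, so each is uncertain. Each of the 3 was called in only 5 of the 12 fits that left out a steer. Whether the RNA species captured on day 14 had a part in the other calls was not tested.

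Among genes called lower, DPYSL2, a microtubule-binding protein of the collapsin response mediator family, had the smallest p-value. It stood at 158 to 224 CPM (median 167) in CEFT steers on day 0 and at 93.3 to 130 (median 109) on day 14, and at 86.1 to 148 (median 113) and 108 to 146 (median 124) in NC steers. The CEFT steers started above all NC steers and ended within or below their range, so the difference between groups was larger on day 0 (0.56, log2) than on day 14 (-0.18). The log2 fold change was -0.75 (SE 0.123, FDR 0.00103).

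DOCK1, which activates the small GTPase Rac in phagocytosis and migration, fell from 8.11 to 16.2 CPM to 3.08 to 4.97 in CEFT steers and from 4.36 to 9.01 to 4.11 to 8.31 in NC steers (log2 fold change -1.10, SE 0.187, FDR 0.00112). All 12 steers fell, and the changes overlapped only between the smallest CEFT fall and the largest NC fall. F13A1, the A subunit of coagulation factor XIII made by platelets and monocytes, fell from 581 to 1396 CPM to 343 to 542 in CEFT steers and from 499 to 894 to 404 to 812 in NC steers (log2 fold change -0.76, SE 0.152, FDR 0.00661). It too fell in all 12 steers, without overlap of the changes.

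The other genes among the 10 with the smallest p-values in this direction were CAPN2, a calpain protease (-0.57), UBQLN1, which carries ubiquitinated proteins to the proteasome (-0.47), PRKAR1A, a regulatory subunit of protein kinase A (-0.34), MSN, moesin, which links actin to the membrane (-0.56), PLBD1, a phospholipase B-like protein (-0.63), KAT7, a histone acetyltransferase (-0.38), and PDCD6IP, an ESCRT adaptor (-0.37). Their FDR ran from 0.00519 for CAPN2 and UBQLN1 to 0.0203 for PDCD6IP. MSN fell from 711 to 856 CPM to 450 to 568 in CEFT steers and went from 565 to 786 to 520 to 744 in NC steers. PLBD1 fell from 127 to 159 CPM to 67 to 86.2 in CEFT steers and from 76.9 to 149 to 59.4 to 126 in NC steers. Of the 20 genes with the smallest p-values in the 2 directions, 18 were called whichever steer was left out, and KAT7 and PDCD6IP in 11 of 12 such fits. Over all 26 alternative fits the 20 genes lost the call in 1 (COPS9 and SLIRP) to 7 (PDCD6IP), and none was called with OXYT in place of NC. They were chosen by p-value in the same libraries, so calls that persist are favoured by the choice.

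The largest falls with changes that did not overlap were those of EEF2, FRMD4B, EHD4, AASS and EMILIN2. EEF2, elongation factor 2 of translation, had a log2 fold change of -1.73 (SE 0.47, FDR 0.0679) that came mainly from the NC steers. In these it rose in all 6, by 1.45 ± 0.417 (log2, SD), from 404 to 896 CPM to 1619 to 1880, while in CEFT steers it changed by -0.39 ± 0.637, from 658 to 1722 to 576 to 1522, with 1 steer up and 5 down. On day 14 the CEFT and NC values did not overlap, and the CEFT values of both days ran from within the NC range of day 0 to above it.

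FRMD4B, a FERM-domain scaffold protein, and EHD4, an ATPase of endocytic recycling, fell furthest in Ceft10. FRMD4B changed by -2.89 (log2) in that steer and by -1.04 to -0.79 in the other CEFT steers, against -0.61 to 0.026 in NC steers (log2 fold change -1.05, FDR 0.0574). EHD4 changed by -2.66 in Ceft10 and by -1.26 to -0.84 in the other CEFT steers, against -0.75 to -0.29 in NC steers (-0.87, FDR 0.0542). EMILIN2, an extracellular matrix glycoprotein (-0.85, FDR 0.03), showed the same order, with -2.03 in Ceft10. AASS, of lysine breakdown, was lower by 0.85 in log2 fold change (FDR 0.0695). EEF2 and AASS were called in 5 of the 12 fits that left out a steer, EHD4 in 7, FRMD4B in 8 and EMILIN2 in 10.

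Further genes called lower were singled out after their values were seen, from no fixed list, so they say nothing of a group. They include EZR, ezrin (-0.47), VCL, vinculin (-0.72), IQGAP1, a scaffold of actin and Rac (-0.54), ACTB, beta actin (-0.50), and VIM, vimentin of intermediate filaments (-0.45), with FDR values from 0.0321 for VCL to 0.0882 for VIM. Actin-binding genes were called in the other direction too, TMSB10 (0.70) and GMFG, which disassembles branched actin (0.47, FDR 0.0974). Of the 12 fits that left out a steer, TMSB10 was called in 12, VCL in 10 and IQGAP1 in 9. EZR was called in 7 of them, ACTB in 6, and VIM and GMFG in 3. Over all 26 alternative fits TMSB10 lost the call in 6, VIM in 18 and GMFG in 20. VIM fell from 2907 to 3563 CPM to 2105 to 2626 in CEFT steers and went from 1698 to 3027 to 1646 to 2953 in NC steers, with CEFT above most NC libraries on day 0. The hydrolases TPP1 (-0.54), CTSB (-0.56), GLB1 (-0.56), FUCA1 (-0.35) and ARSB (-0.36) had FDR values from 0.0321 to 0.0851. Of the 12 fits that left out a steer, TPP1 was called in 9, CTSB in 8, GLB1 and FUCA1 in 7 and ARSB in 4. CTSB, cathepsin B, fell from 546 to 976 CPM to 327 to 415 in CEFT steers and from 319 to 707 to 317 to 531 in NC steers. C3, the central complement component, was called at -1.05 (FDR 0.0245), with CEFT steers at 42.7 to 92.2 CPM on day 0 and 20.1 to 36.5 on day 14 and NC steers at 19.2 to 60.5 and 29.1 to 53.1. COPA and SEC31A, coat proteins of vesicles between the endoplasmic reticulum and the Golgi, were called at -0.41 and -0.34.

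Sterol genes were lower in CEFT where they were called. Of 17 genes of sterol uptake, export and regulation tested, 4 were called lower (23.5%, against 0.535% over all genes) and none higher, with a median log2 fold change of -0.25. Among them, SREBF1, a transcription factor of lipid synthesis, changed by -0.54 ± 0.647 (log2, SD, n = 6) in CEFT and 0.59 ± 0.394 in NC (log2 fold change -1.13, FDR 0.063). NPC1, which exports cholesterol from lysosomes, and LIPA, which frees it from esters there, were called at -0.40 (FDR 0.0321) and -0.67 (FDR 0.0315). None of the 4 was called without Ceft10, 1 without NC13 and 2 without Ceft6, NC12 or NC15. After ComBat_seq by lane 2 were called, and 0 without the replicate block, in the fit of the 24 libraries alone or with OXYT in place of NC.

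The 20 enzymes of cholesterol synthesis had a median log2 fold change of -0.13, with 15 below 0 and 5 above. The median was 0.0079 with OXYT in place of NC and -0.044 for CEFT against the other 5 treatments. Among the enzymes with the smaller p-values, CYP51A1, SQLE, NSDHL and MSMO1 had log2 fold changes of -0.46, -0.39, -0.26 and -0.46. Their FDR was 0.102, 0.103, 0.167 and 0.198, so they were not called. In these 4 the mean change was -0.031 to 0.18 (log2) in CEFT steers and 0.34 to 0.62 in NC steers.

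Among 17 genes of fatty acid synthesis and desaturation, 2 were called lower (11.8%, against 0.535% over all genes) and none higher. Of the 17, 16 had a log2 fold change below 0, and the list's median was -0.36. SCD, the stearoyl-CoA desaturase, changed by -0.20 ± 0.398 in CEFT and by 0.42 ± 0.253 in NC, upward in all 6 NC steers (-0.65, FDR 0.0585). LPIN1, a phosphatidate phosphatase, changed by -0.48 ± 0.191 and 0.14 ± 0.397 (-0.62, FDR 0.0976). Neither was called without Ceft10, Ceft4, Ceft5, NC12, NC13 or NC15, or without the replicate block. Nor was either called in the fit of the 24 libraries alone, in that of all 7 groups or with OXYT in place of NC. After ComBat_seq by lane 1 was called. Of 22 chaperone and unfolded protein response genes 1 was called lower (4.55%, against 0.535% over all genes) and none higher. This was HERPUD1, which serves the removal of misfolded proteins from the endoplasmic reticulum (-0.36, FDR 0.0478), and it fell in all 12 steers.

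**Figure D3:**
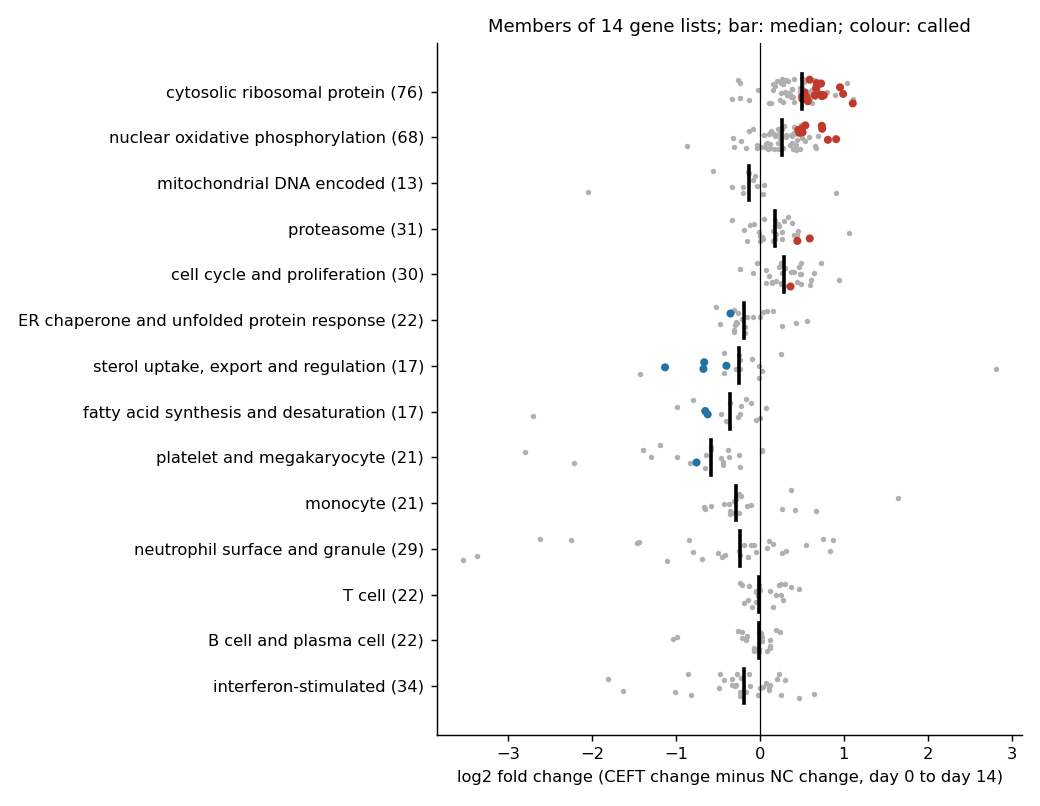
Log2 fold changes (CEFT change minus NC change, day 0 to day 14) of the members of 14 gene lists, with the number tested in brackets. Each point is a gene, red if called higher, blue if called lower and grey otherwise, and the bar is the list's median, which is 0.50 for ribosomal proteins and 0.26 for nuclear oxidative phosphorylation.

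Markers of blood cell types were read as lists to see whether they moved with these genes. No member was called among 22 T cell, 22 B cell and plasma cell, 19 NK and cytotoxic, 29 neutrophil, 21 monocyte, 14 eosinophil and basophil and 8 gamma delta WC1 genes, with median log2 fold changes of -0.0081, -0.014, -0.080, -0.24, -0.28, -0.13 and 0.23. In these lists 0 to 5 genes were lower and 0 to 3 higher at an unadjusted p below 0.05, the 5 being monocyte genes, whose median was -0.14 without Ceft10. CD14, the monocyte receptor for lipopolysaccharide, was lower on day 14 in all 12 steers, at 45.7 to 183 CPM on day 0 and 21.8 to 32.1 on day 14 in CEFT and at 58 to 87.1 and 27.7 to 47.2 in NC, with a log2 fold change of -0.65 that did not pass (FDR 0.33).

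Platelet and megakaryocyte genes had a median of -0.58, with 19 of 21 below 0. F13A1 was the only one called (4.76%, against 0.535% called lower over all genes). The median was -0.35 without Ceft10 and 0.064 with OXYT in place of NC, and it was 0.049 for CEFT and 0.58 for NC when each was set against the other 5 treatments. Summed over that list, CPM ran from 1218 to 3399 (median 1774) in CEFT on day 0 and 972 to 1883 (median 1668) on day 14, and from 1482 to 2379 (median 1814) and 1948 to 3335 (median 2198) in NC, so that all 6 CEFT libraries of day 14 lay below all 6 NC libraries. Erythroid and heme synthesis genes had a median change of 0.86 (log2) within CEFT and 1.09 within NC, and interferon-stimulated genes one of -0.49 and -0.66, with none called in either list. Ceft10 stood apart in the latter on day 0, with a summed CPM of 35520 against 2146 to 5193 in the other CEFT steers and 2103 in the same steer on day 14. Its day 0 library also had the highest summed CPM of the 6 CEFT steers for monocyte (7586), platelet (3399) and glucocorticoid-responsive genes (8716) and the lowest for T cell genes (3037). The part of cell composition in the genes called was not tested.

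Genes of tissues that blood should lack, keratins and skeletal muscle, had medians of -3.70 and -2.79 with none called. Their counts were uneven: summed keratin CPM was 5.11 or below in every day 0 library and reached 267 in 1 CEFT library and 155 in 1 NC library of day 14, while summed muscle CPM ranged from 135 to 335 with wide overlap of the groups. The other lists read (T-cell receptor signalling, cytokines, Toll-like receptors, antigen presentation of both classes, heat shock, integrated stress response, glucocorticoid response, circadian clock and immediate early genes) held no called gene, with medians between -0.36 for immediate early genes and 0.049 for cytokines. The immediate early median was -0.19 without Ceft10, -0.23 without NC13 and -0.0076 with OXYT in place of NC, and 2 of its genes were called lower without NC12 and 1 without NC1 or NC7.

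The called genes were followed over the other sampling days in the same fit, whose terms share the day 0 and NC libraries. No gene was called on days 3, 7, 21 or 56 in the quasi-likelihood test, although 3427, 1883, 2006 and 1097 genes had an unadjusted p below 0.05. The median log2 fold change of the 129 genes called higher at the 5 later samplings was 0.17 (day 3), 0.24 (day 7), 0.56 (day 14), 0.12 (day 21) and 0.032 (day 56). That of the 102 called lower was -0.23, -0.24, -0.49, -0.18 and -0.28. Since the genes were chosen on day 14, the larger value of that day is fixed by the choice, and the difference between days was not tested.

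Median levels over the course of the trial are given here for single genes. These too were chosen by their day 14 change, so a departure on that day is favoured by the choice. RPS12 in CEFT steers was at 837, 918, 1005, 2081, 991 and 983 CPM on the 6 days in turn (0, 3, 7, then 14, then 21 and 56), and in NC steers at 747, 991, 927, 982, 946 and 956. COPS9 was at 15.7, 16.8, 18.2, 28.8, 16.4 and 15.4 CPM in CEFT, and between 15.7 and 18.3 throughout in NC. For these 2 genes the CEFT medians of the other 5 days lay close to the NC medians. DOCK1 was at 9.95, 7.78, 6.03, 3.61, 6.12 and 6.41 CPM in CEFT and 8.64, 8.82, 5.51, 6.01, 6.23 and 6.95 in NC. EEF2 differed from these, with NC medians of 642 and 663 on days 0 and 56 and 1503 to 1732 on the days between, and CEFT medians of 875 to 1556 in no such order.

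**Figure D4:**
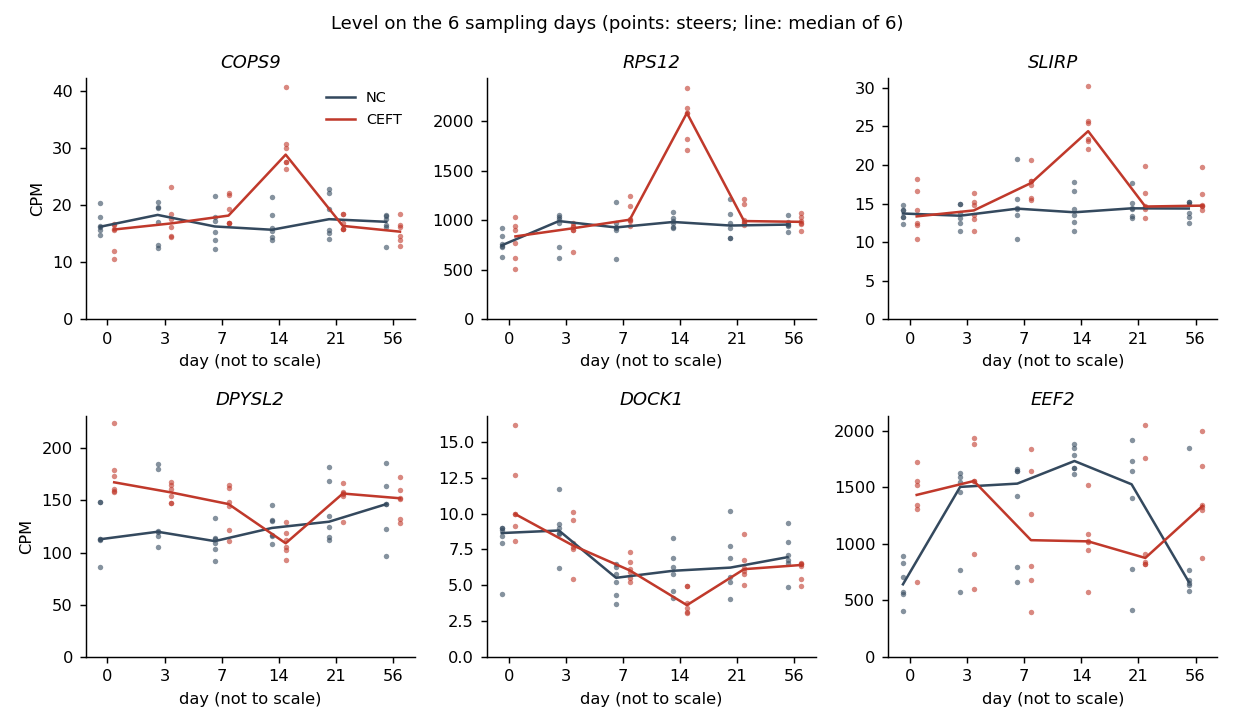
CPM of COPS9, RPS12, SLIRP, DPYSL2, DOCK1 and EEF2 on the 6 sampling days (spacing not to scale) in CEFT (red) and NC (dark) steers, with a point per steer and a line through the median of 6. For RPS12 the CEFT median reaches 2081 on day 14 and stays between 837 and 1005 on the other days. The genes shown were chosen by their day 14 change.

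To see which of the 2 groups departed from steers with other treatments, CEFT and NC were each set against the mean of the other 5 treatments (ENRO, enrofloxacin; FLOR, florfenicol; OXYT, oxytetracycline; TILD, tildipirosin; TULA, tulathromycin) in a fit of all libraries of the series. CEFT differed in its day 14 change at 369 genes (1.94%), 235 higher and 134 lower. NC differed at 0 in the quasi-likelihood and the likelihood ratio tests, with 874 genes at an unadjusted p below 0.05. Over the 231 genes, however, NC had the opposite sign to the call at 225, with a median of -0.15 in the direction of the call and 61 at an unadjusted p below 0.05. The 2 contrasts share the CEFT or the NC libraries with the main comparison and are not independent of it.

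Of the 231 genes, 126 were also called for CEFT against the other 5, with a median log2 fold change in the direction of the call of 0.40 in place of 0.54 over all 231. COPS9 was at 0.75 (FDR 0.017), RPS12 at 0.77 (FDR 0.017), DPYSL2 at -0.47 (FDR 0.0202) and DOCK1 at -0.82 (FDR 0.0167). F13A1 (-0.48, FDR 0.114), SREBF1 (-0.54, FDR 0.32) and EEF2 (-0.50, FDR 0.657) were not called. Of the list members, 25 ribosomal protein genes, 15 genes of oxidative phosphorylation and 4 of the proteasome were called for CEFT against the other 5, where 1.23% of all genes were called higher and 0.703% lower.

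Against OXYT, all of whose libraries were also on lane 3, as were those of 2 TILD steers, no gene was called for CEFT in the quasi-likelihood test (1306 at an unadjusted p below 0.05), and the 231 genes had a median of 0.33 in the direction of their call, 111 of them at an unadjusted p below 0.05. COPS9 was at 0.54, RPS12 at 0.55, DPYSL2 at -0.40 and DOCK1 at -0.72 in that comparison. Ribosomal protein genes had a median of 0.25 and genes of oxidative phosphorylation 0.20. In the reverse view, OXYT against NC also had no gene called (746 at an unadjusted p below 0.05). For ENRO, FLOR, TILD and TULA against NC 1 (0.00525%), 0, 18 (0.0945%) and 0 genes were called on day 14. These counts against NC came from the fit of all 7 groups, in which fewer than 231 genes were called for CEFT against NC.

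Steers of FLOR, OXYT, TILD and TULA overlapped those of CEFT in their changes of COPS9, RPS12 and DPYSL2, and steers of ENRO did not. COPS9 changed by 0.66 to 1.504 (median 1.06) in CEFT, by 0.32 to 1.10 (median 0.69) in TILD and by -0.20 to 1.29 (median 0.24) in OXYT, and RPS12 by 0.86 to 2.04 in CEFT, 0.43 to 1.58 in TILD and -0.35 to 1.601 in OXYT. In ENRO the highest change was 0.15 for COPS9 and 0.59 for RPS12, and the lowest was -0.20 for DPYSL2, all outside the CEFT ranges. TILD was the group nearest to CEFT by the median in both genes and in DPYSL2 (-0.64 in CEFT and -0.41 in TILD), and CEFT was not tested against TILD. For EEF2 the median change was 1.45 in NC and no more than 0.62 in any other group.

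**Figure D5:**
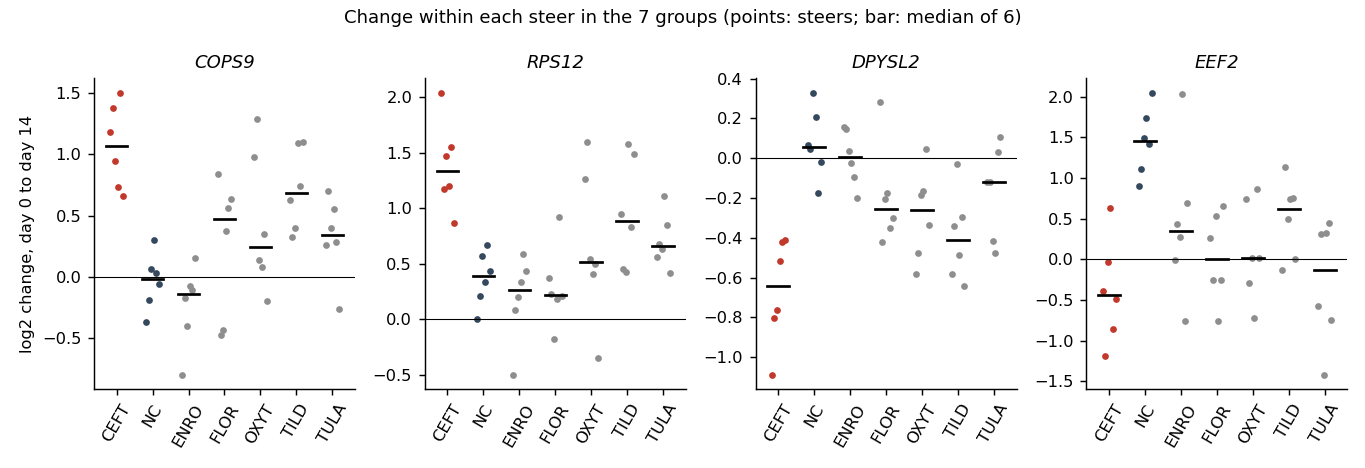
Log2 change from day 0 to day 14 within each steer for COPS9, RPS12, DPYSL2 and EEF2 in the 7 groups, with a point per steer and a bar at the median of 6. CEFT has the highest median for COPS9 (1.06) and RPS12 (1.34) and the lowest for DPYSL2 (-0.64). For each of these 3 genes 3 TILD, 2 OXYT, 1 FLOR and 1 or 2 TULA steers lie inside the CEFT range and no ENRO or NC steer does, and NC stands highest for EEF2 (1.45).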

How the data were processed

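Whole blood was collected in PAXgene tubes, and mRNA libraries made with a stranded kit were sequenced as paired reads of 150 bases. The authors trimmed reads with Trimmomatic, aligned them with HISAT2 to the ARS-UCD1.3 cattle genome and made gene counts with StringTie and its prepDE script. The deposited values are these raw counts, with no normalization.

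Counts of all libraries of the series were scaled by TMM. Genes above 0.2 CPM in at least 12 libraries were kept (19056 of 33282). A quasi-likelihood model (edgeR 4.0.16, robust, R 4.3.3) with steer, day and treatment by day terms was fitted to the 72 CEFT and NC libraries with 50 residual degrees of freedom, and its day 14 term was tested with Benjamini-Hochberg adjustment over all genes tested. The contrasts against the other 5 treatments came from a fit of all libraries. Changes within a steer are differences of log2 CPM with a prior count of 2. Library measures were compared by exact permutation tests.

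Days 0 and 14 are paired by steer, as labelled. Deviations of a steer's day 0 and day 14 libraries from their group means correlated at a median of 0.345 (0.242 to 0.414, above 0.1 in 12 of 12 steers), against -0.0671 with libraries of other steers. Deviations from a group mean sum to 0, so the negative value follows largely from the calculation and is no separate comparison. Steers are separate animals that shared a pen by treatment, so pen effects are part of the spread between groups and not of the error.

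The scripts were tested on simulated data. The comparison, gene lists and naming rule were chosen with earlier results of these data known. Genes named were the 10 with the smallest p-values in each direction, the 5 called genes with the largest fold change in each direction at a mean CPM of at least 1 whose changes did not overlap, the called and the leading members of each list, and the cholesterol synthesis enzymes, apart from some that are not reported here. Genes outside that rule are said in the text to be chosen after their values were seen. Alternatives used limma 3.58.1, DESeq2 1.42.0 and ComBat_seq of sva 3.50.0. RefSeq names of the ARS-UCD2.0 assembly were used for gene classes and microRNA loci, with 2002 of the genes tested not matched, and no coordinates are given.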

Additional observations from a re-analysis of the deposited data

Results flagged for a closer look

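In 8 of 154 groups of 6 changes checked for the 77 genes examined, 1 steer stood apart from the others by Dixon's criterion, which chance meets in about 1 in 20 groups. Ceft10 stood apart in 5 of the 8. EMILIN2 changed by -2.03 (log2) in Ceft10 and by -1.36 to -1.04 in the other CEFT steers. EHD4 changed by -2.66 in Ceft10 against -1.26 to -0.84, and FRMD4B by -2.89 against -1.04 to -0.79. ARSB changed by -1.12 in Ceft10 against -0.67 to -0.40, and CD14 by -2.51 against -1.58 to -1.06. In each of these 5 genes Ceft10 had the highest level of the 6 CEFT steers on day 0, as for EHD4 at 108 CPM. SCD changed by 0.55 in Ceft3 and by -0.52 to -0.18 in the other CEFT steers. In NC steers, RPL27 changed by 0.68 in NC5 against -0.051 to 0.20 in the others, and NSDHL by 0.70 in NC1 against 0.16 to 0.32.

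The day 14 library of NC5 had 20.4% of its counts in hemoglobin genes, against 2.13% to 5.28% in the other NC steers, and 25.8% in its 10 most abundant genes, against 8.92% to 10.4%. Without NC5, 359 genes were called in place of 231, of which 212 were among the 231.

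The comparison itself is a test of a difference between groups in the same change, and it called 231 genes for CEFT against NC and 369 for CEFT against the other 5 treatments.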

How the results depend on the processing

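The 231 genes called for CEFT against NC became 11 (9 shared) when the 24 libraries of days 0 and 14 were fitted alone and 12 with TMM also computed on them, 135 with the libraries of all 7 groups in the fit, 149 without a filter on low counts, 521 with DESeq2 (216 higher, 305 lower), 105 and 89 after ComBat_seq by lane with the quasi-likelihood and likelihood ratio tests, 104 at an FDR of 0.05 and 0 with OXYT steers in place of NC. Without the steer as replicate block, that is without the pairing of days, 12 were called for CEFT against NC and 7 in place of 369 for CEFT against the other 5 treatments. Leaving out 1 steer gave 54 (without NC13) to 359 (without NC5), with 52 and 212 of the 231 shared. For NC against the other 5 treatments, 2 genes were called in place of 0 when genes under a mean of 1 CPM were left out. The cause of these differences was not tested. The fits of 24 libraries held fewer samples and took their estimate of the spread from days 0 and 14 alone.

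Over the genes named and the alternatives, 2002 values were computed, of which 1384 stayed on their side of the threshold, 605 lost the call, 13 gained it and 0 changed sign.

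The number of genes with a count changed by -337 ± 302 in CEFT and -98.5 ± 318 in NC (SD), a difference of -239 (exact permutation test, p = 0.21). The differences in the other library measures were small beside their spread and changed sign. The difference in total count was -1.38 M and ranged from -2.95 to 0.829 with 1 steer left out, positive without NC15. That in hemoglobin share was -1.03 percentage points, ranged from -2.57 to 1.602, positive without NC5, and was 0.656 on a log2 scale. That in the share of the 10 most abundant genes was 0.0988 percentage points and ranged from -1.78 (without Ceft8) to 2.6. The total counts, 30.7 M or more per library, limit mainly genes below 1 CPM.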
